A study of Mus musculus with 16 samples.

Results

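Paternally expressed imprinted genes of chromosome 7 were examined in sparse Eed+/+ and Eed-/- cells of the early postnatal mouse neocortex. The set held 10 genes, found by symbol among the 53379 genes of the count tables, and every symbol matched exactly 1 gene. Their identity as imprinted genes was set by prior knowledge and not by their values here. The genes lie in 3 domains of chromosome 7. Peg3 and Usp29 form the proximal domain, Snrpn, Snhg14, Ndn, Magel2, Mkrn3 and Peg12 the central domain, and Igf2 and Kcnq1ot1 the distal domain.

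RNA was sequenced from green (GFP+) cells sorted from the mouse neocortex at postnatal day 4 (strain CD1 in the labels, a mixed background of C57BL/6 and CD1 in the study's methods), and each library came from 1 animal. Control-MADM animals (MADM7-GT/TG with Emx1-cre and XGFAP-lacZ) were wild type for Eed and gave Eed+/+ green cells. In Eed-MADM animals (MADM7-GT/TG,Eed with Emx1-cre and XGFAP-lacZ) the green cells were Eed-/- and lay in tissue that was mostly Eed+/-. Eed is a core subunit of Polycomb repressive complex 2, which silences genes by methylating histone H3. Emx1-cre drives recombination in progenitors of the dorsal telencephalon, and lacZ under the human GFAP promoter separated astrocytes (lacZ+) from neurons (lacZ-). The labels gave 5 Eed+/+ astrocyte, 5 Eed-/- astrocyte, 2 Eed+/+ neuron and 3 Eed-/- neuron libraries. A further library carried labels of both cell types and entered no comparison.

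An imprinted gene is normally expressed from the copy of 1 parent. The silent copy is held off by marks placed in the germ line, mostly DNA methylation at an imprinting control region, and noncoding RNAs of the active copy keep neighbouring genes silent in cis. Mosaic analysis with double markers (MADM) on chromosome 7 yields cells with uniparental disomy, in which both copies of the chromosome stem from the same parent. In the breeding used here all green cells, Eed+/+ and Eed-/-, carried both copies from the father. Both copies of each of the 10 genes thus come through the paternal germ line in every group, and neighbours expressed only from the maternal copy lack their usual active copy. The comparison of genotypes therefore asked whether loss of Eed changes genes that are paternal on both copies, and the comparison of cell types asked whether they differ between astrocytes and neurons. A comparison with cells that have 1 paternal copy was not analysed here.

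The promoters below are shown because the results turn on these genes, Ndn as the most abundant, its neighbour Magel2 for its values in Eed-/- cells, and Peg3 for the start region it shares with Usp29. Each sequence is 5′ to 3′ on the strand of its gene, from 250 bases before to 50 after the transcription start in RefSeq (GRCm38.p6), and CpG dinucleotides, the sites of DNA methylation, are in capitals.
Ndn: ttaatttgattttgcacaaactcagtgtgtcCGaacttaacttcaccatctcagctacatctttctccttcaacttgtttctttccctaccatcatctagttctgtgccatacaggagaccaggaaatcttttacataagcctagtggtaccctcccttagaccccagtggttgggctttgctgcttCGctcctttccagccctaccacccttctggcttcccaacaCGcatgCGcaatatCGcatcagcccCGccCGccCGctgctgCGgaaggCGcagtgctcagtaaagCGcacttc
Magel2: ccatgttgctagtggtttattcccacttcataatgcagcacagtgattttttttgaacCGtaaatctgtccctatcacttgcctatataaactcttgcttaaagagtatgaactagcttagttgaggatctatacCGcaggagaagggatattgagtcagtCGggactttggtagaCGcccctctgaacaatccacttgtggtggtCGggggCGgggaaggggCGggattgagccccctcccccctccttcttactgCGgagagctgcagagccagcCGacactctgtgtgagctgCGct
Peg3: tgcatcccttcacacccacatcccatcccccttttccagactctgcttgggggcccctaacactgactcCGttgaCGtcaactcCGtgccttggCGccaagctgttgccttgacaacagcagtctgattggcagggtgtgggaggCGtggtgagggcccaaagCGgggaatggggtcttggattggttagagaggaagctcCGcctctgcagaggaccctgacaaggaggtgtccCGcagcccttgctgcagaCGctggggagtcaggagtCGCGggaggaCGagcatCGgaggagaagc
The Ndn window (chr7:62348027-62348326, plus strand) held 11 CpG and the Magel2 window (chr7:62376729-62377028, plus strand) 10. The gene model of Ndn counted here (chr7:62346569-62350262) begins upstream of its window, which thus lies inside the counted exon. Levels of Ndn per kb below use the whole of that exon. The Peg3 window (chr7:6730370-6730669, minus strand) held 13. The window of Usp29, which is transcribed the other way (chr7:6730333-6730632, plus strand), held 17 and shared 263 bases with that of Peg3. All 10 genes had at least 1 window in the table, 16 in all, and for 8 of them the window with most CpG lay above the median of 7 CpG over 32851 windows. As many CpG as in the Ndn, Magel2 and Peg3 windows were found in 41.4%, 43.5% and 37.9% of all windows. Of the 4 Snrpn windows 1, with 2 CpG, was also that of Snhg14 in RefSeq, and the counts of Snhg14 used here cover a shorter gene model that begins downstream of it.

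Libraries differed in depth and alignment. Between 211736 and 3178529 reads per library were assigned to genes. In 10 libraries at least 60% of reads and at least 1000000 reads were uniquely aligned, and these are called within the limits below (4 Eed+/+ astrocyte, 2 Eed-/- astrocyte, 1 Eed+/+ neuron and 3 Eed-/- neuron libraries). In the other 5 libraries between 26.1% and 38.1% of reads were uniquely aligned. Of their uniquely aligned reads 46.7% to 71.6% fell outside genes, against 8.55% to 19.8% in the 10. The 5 were the library labelled Eed+/+ astrocyte replicate 3, Eed-/- astrocyte replicates 1, 3 and 4 and Eed+/+ neuron replicate 2. The study's methods leave out a sizeable part of these libraries by principal component analysis or replicate correlation, and the sources used here do not name them. The fits below keep all 15 labelled libraries unless stated, so that they include libraries the study did not use. Levels are counts per 1000000 gene reads after TMM scaling (CPM), and 3 reads, the most that a count of 0 allows, correspond to between 1.12 and 9.36 CPM. No molecular identifiers were used, and these floors therefore describe counting error alone. Eed itself, counted over the whole gene, had 28.4 to 76.2 CPM in the 5 Eed+/+ libraries within the limits and 14.2 to 38.0 in the 5 Eed-/- ones. Outside the limits it had 0 reads in the 3 Eed-/- astrocyte libraries and 81.1 CPM in Eed+/+ neuron replicate 2. The library labelled Eed+/+ astrocyte replicate 3 had 3.71 CPM (2 reads, where 3 reads correspond to 5.57 CPM), below every Eed-/- library within the limits and against its label. Without it 0 of 8 members were called between genotypes in astrocytes. Reads from exons outside the deleted part remain countable. Astrocyte markers summed to between 13327 and 36461 CPM in the 6 astrocyte libraries within the limits and between 8445 and 12921 in the 4 neuron libraries. In the 4 astrocyte libraries outside the limits they summed to 1685, 5166, 5550 and 14663 CPM, so that 3 of these lay below every neuron library. The summed neuron markers overlapped within the limits (248 to 2431 CPM in astrocytes and 1373 to 2403 in neurons).

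Over the 15 labelled libraries the 10 genes together had 23072 reads. Ndn took 59.2% of them, Snrpn 12.04%, Kcnq1ot1 9.06%, Peg3 7.95%, Peg12 3.68%, Snhg14 3.66%, Usp29 1.69%, Mkrn3 1.64%, Magel2 0.754% and Igf2 0.273%. In the 10 libraries within the limits the genes summed to a median of 1207 CPM, with a range from 877 to 1917, and at least 8 of the 10 genes had a read in each library. In the other 5 libraries the sum ranged from 12.4 to 1134 CPM, and in Eed-/- astrocyte replicate 4 only Snhg14 had reads (4).

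**Figure D1:**
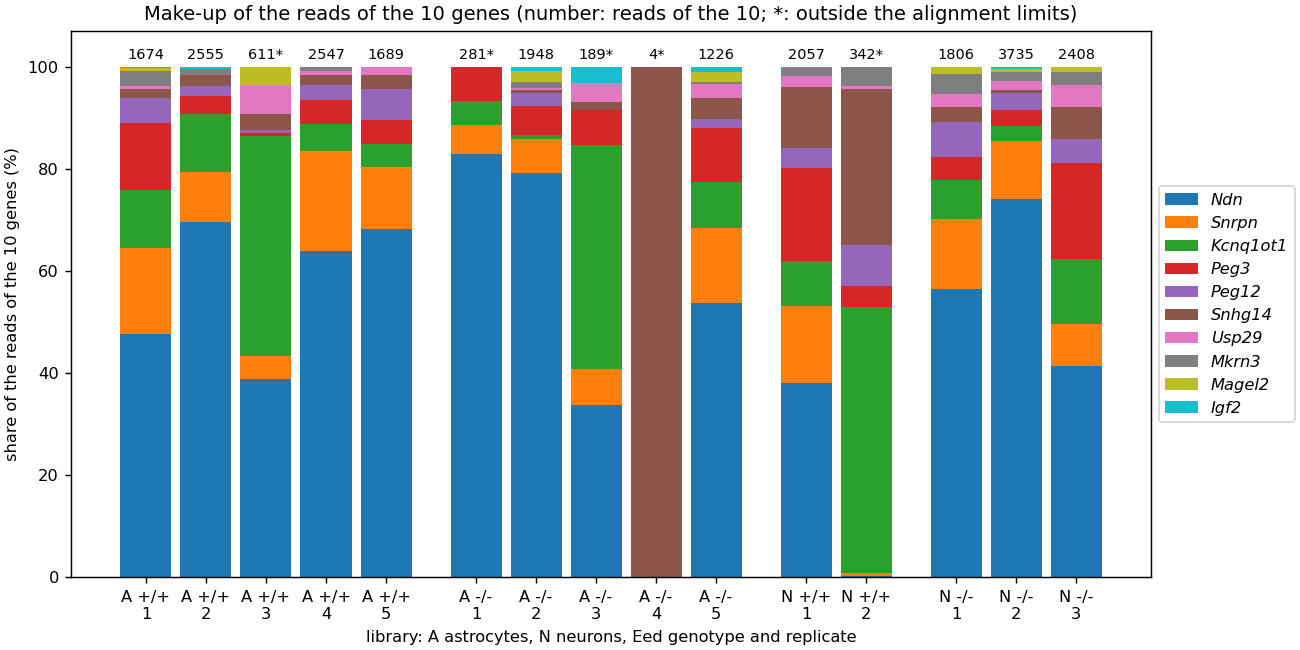
Share of the reads of the 10 genes that fell on each gene (vertical axis, %), for each labelled library (horizontal axis, by cell type, Eed genotype and replicate), with the number of reads above each bar and an asterisk for libraries outside the limits. Ndn took between 38.2% and 79.3% in the 10 libraries within the limits and 0.292% in Eed+/+ neuron replicate 2.

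Per length of exon that no other gene shares, the order of the genes was steep. Within the limits Ndn had a median of 192 CPM per kb (range 113 to 385, n = 10) and Snrpn 110 (59.4 to 162), and the ranges of these neighbours overlapped. Peg12 followed with 16.6 CPM per kb (7.21 to 36.2), below every value of Snrpn. Mkrn3 (6.503, from 0.272 to 21.5) and Peg3 (5.205, from 2.58 to 21.5) overlapped with Peg12 and with each other. Magel2 had a median of 1.90 CPM per kb, Usp29 1.36, Snhg14 1.08, Kcnq1ot1 1.07 and Igf2 0.784, and the ranges of these 5 genes overlapped throughout. Kcnq1ot1 was thus among the genes with most reads and among the lowest per kb, since its annotated exon spans 93092 bases.

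**Figure D2:**
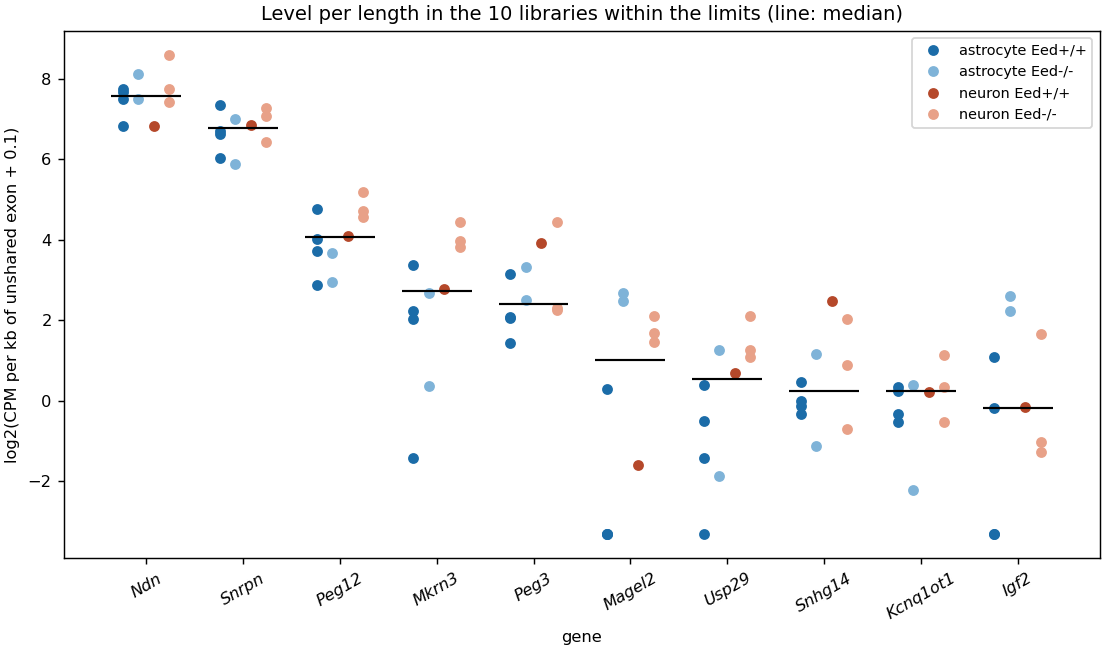
Level of each gene per kb of unshared exon, as log2(CPM per kb + 0.1), in the 10 libraries within the limits, with the genes ordered by their median (line) and colours for the 4 groups. Ndn and Snrpn lie above every value of the other 8 genes.

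The central domain holds the genes of the Prader-Willi region, which are best known for roles in neurons. Ndn (ENSMUSG00000033585.5, chr7:62346569-62350262, plus strand) is a single-exon gene for necdin, a protein of the MAGE family that restrains the cell cycle and promotes neuronal differentiation. In Eed+/+ astrocytes Ndn was at 418, 664, 440, 751 and 798 CPM in replicates 1 to 5, and in Eed-/- astrocytes at 394, 1027, 189, 0 and 666. Eed+/+ neurons had 421 and 3.12 CPM and Eed-/- neurons 799, 1421 and 629. All 3 Eed-/- neuron libraries lay above both Eed+/+ ones, but the value of 3.12 was a single read in the library with 60.3% of its uniquely aligned reads outside genes. Within the limits Ndn was at 721 ± 199 CPM (SD, n = 6) in astrocytes and 817 ± 431 (SD, n = 4) in neurons, and the libraries of the cell types overlapped. The log2 difference of astrocytes minus neurons there was 0.20, with a 95% interval from -0.55 to 0.96. In these sorted pools a change in the cells that express a gene and a change of RNA per cell cannot be told apart.

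Snrpn (ENSMUSG00000102252.5, chr7:59982495-60140219, minus strand) encodes a protein of the small nuclear ribonucleoproteins of the spliceosome. In Eed+/+ astrocytes it had 147, 93.3, 52.0, 230 and 141 CPM, and in Eed-/- astrocytes 27.1, 84.4, 38.4, 0 and 183. Neurons had 165 and 6.24 (Eed+/+) and 193, 219 and 123 (Eed-/-). Low values stood in the 5 libraries outside the limits, which ranged from 0 to 52.0 CPM, below all 10 others (84.4 to 230). Snrpn shares 27.3% of its exon bases with Gm38393 and 10.0% with Snurf on the same strand, and reads there were set aside by the counting.

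Magel2 (ENSMUSG00000056972.6, chr7:62377010-62381640, plus strand), a single-exon MAGE gene whose protein acts with TRIM27 in endosomal protein recycling, had at most 44 reads in any library. In Eed+/+ cells it had 10, 0, 21, 0 and 0 reads in astrocytes (5.24, 0, 39.0, 0 and 0 CPM) and 2 and 0 reads in neurons (1.07 and 0 CPM). In Eed-/- cells it had 0, 44, 0, 0 and 25 reads in astrocytes (0, 29.2, 0, 0 and 25.3 CPM) and 25, 24 and 23 reads in neurons (19.6, 12.3 and 14.5 CPM). Every Eed-/- library within the limits had at least 23 reads, and every Eed+/+ library within the limits at most 10. The groups overlapped once the other libraries were counted, since 3 Eed-/- astrocyte libraries had no read. The highest value of all, 39.0 CPM, stood in the library labelled Eed+/+ astrocyte replicate 3. Its Eed level went against its label but rested on 2 reads, below its floor of 5.57 CPM. In that library 48.1% of uniquely aligned reads lay outside genes.

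Mkrn3 (ENSMUSG00000070527.3, chr7:62417593-62420139, minus strand) encodes a RING finger ubiquitin ligase. Its levels were 26.2, 11.6, 0, 10.1 and 0.693 CPM in Eed+/+ astrocytes and 0, 15.95, 0, 0 and 3.03 in Eed-/- astrocytes. Neurons had 17.2 and 40.6 (Eed+/+) and 54.8, 35.4 and 39.7 CPM (Eed-/-). The neuron libraries lay between 17.2 and 54.8 and overlapped the astrocyte libraries only through Eed+/+ astrocyte replicate 1.

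Peg12 (ENSMUSG00000070526.2, chr7:62461871-62464510, minus strand), a single-exon gene of the Frat family, whose proteins bind glycogen synthase kinase 3, had 42.4, 19.04, 5.57, 34.6 and 72.0 CPM in Eed+/+ and 0, 33.2, 0, 0 and 20.2 in Eed-/- astrocytes. Neurons had 45.1 and 87.4 (Eed+/+) and 95.4, 62.6 and 68.6 CPM (Eed-/-). Peg12 had more reads than Mkrn3 in all 10 libraries within the limits.

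Snhg14 (ENSMUSG00000100826.6, chr7:59307924-59975759, minus strand) is a long noncoding RNA that hosts small nucleolar RNAs and whose distal part runs antisense to Ube3a. It had 16.8, 19.4, 37.1, 21.7 and 30.5 CPM in Eed+/+ astrocytes and 0, 8.64, 8.86, 12.4 and 51.6 in Eed-/- astrocytes. Neurons had 131 and 325 CPM (Eed+/+) and 42.2, 12.3 and 95.7 (Eed-/-). The Eed+/+ astrocytes were close to each other, and both Eed+/+ neuron libraries lay above all 13 others. Ube3a lies on the other strand and was listed as maternally expressed, but which copy these cells use was not measured. It had 65.8 to 213 CPM within the limits and its highest value, 512, in Eed+/+ neuron replicate 2, the library where Snhg14 was highest. The libraries were not stranded, and 6.91% of the exon bases of Snhg14 overlap Ube3a, so reads there could not be assigned to either. On the rest of its exons, any reads from the opposite strand could not be told apart from those of Snhg14.

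**Figure D3:**
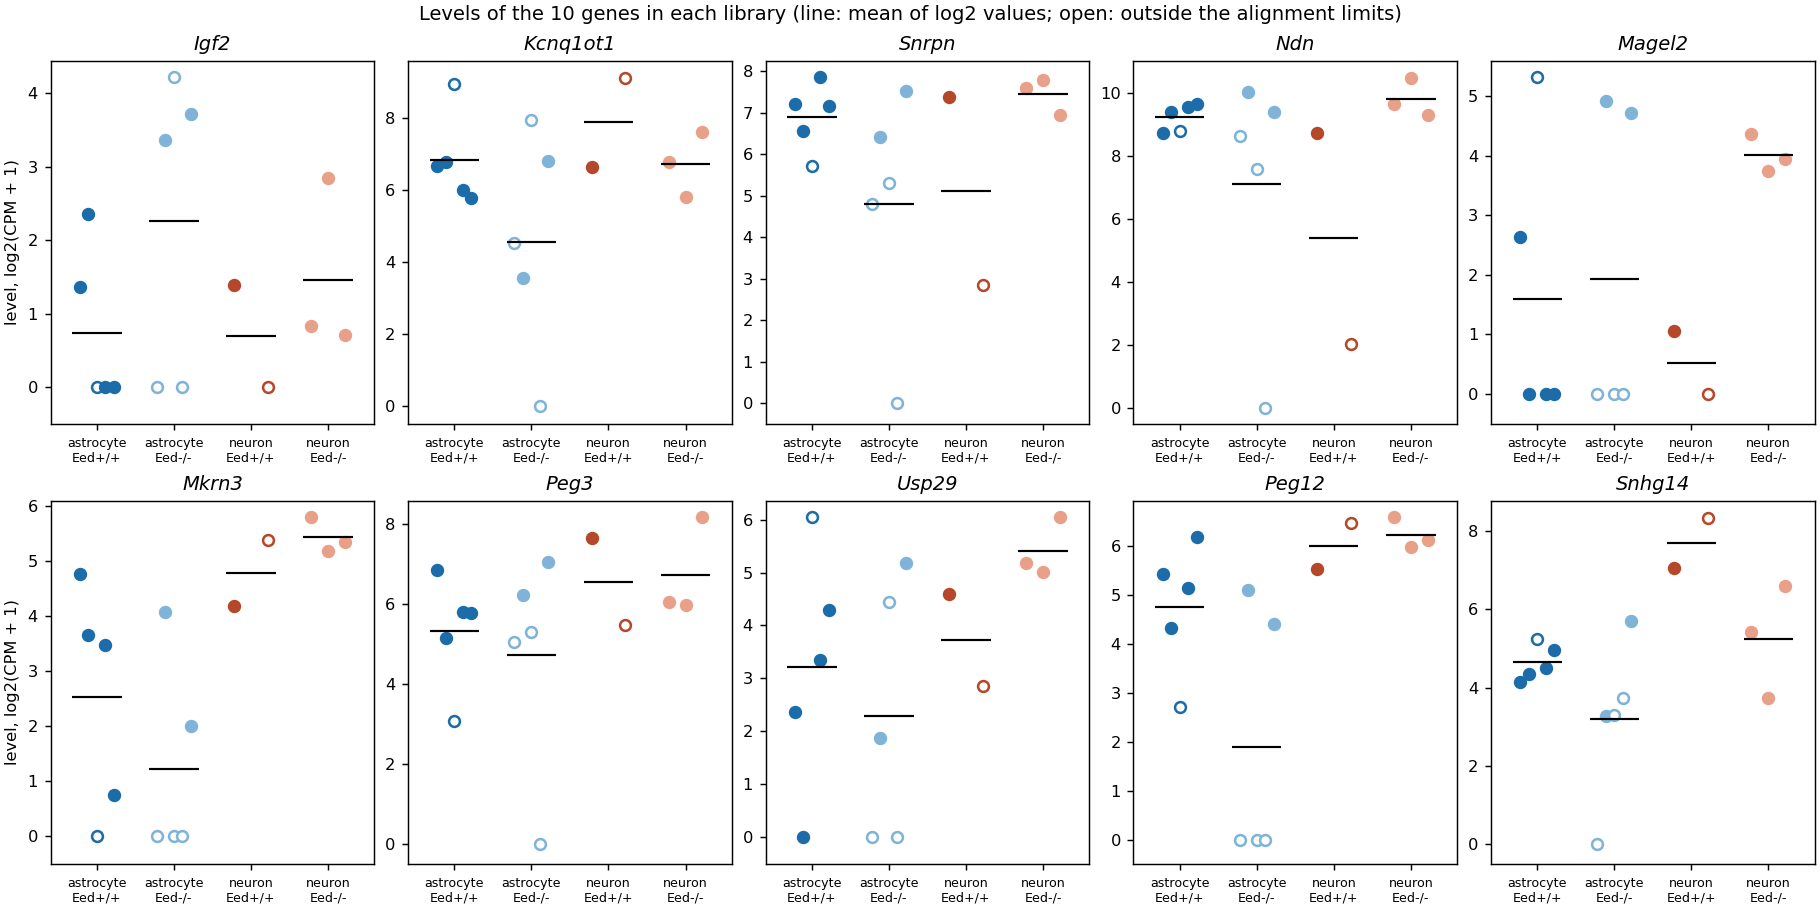
Level of each of the 10 genes, as log2(CPM + 1), in the 15 labelled libraries by cell type and Eed genotype, with a line at the mean of the group and open points for the 5 libraries outside the limits. Magel2 is at 12.3 to 29.2 CPM in the 5 filled Eed-/- points (2 astrocyte, 3 neuron) and at 0 to 5.24 CPM in the 5 filled Eed+/+ points (4 astrocyte, 1 neuron). With the open points the genotypes overlap, since 3 Eed-/- astrocyte libraries are at 0 and the library labelled Eed+/+ astrocyte replicate 3 is at 39.0 CPM.

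In the proximal domain Peg3 (ENSMUSG00000002265.16, chr7:6703892-6730431, minus strand) encodes a zinc finger protein and Usp29 (ENSMUSG00000051527.11, chr7:6730578-6967219, plus strand) a ubiquitin-specific protease. Peg3 had 116, 34.3, 7.43, 54.9 and 54.0 CPM in Eed+/+ and 32.2, 73.8, 38.4, 0 and 132 in Eed-/- astrocytes. Neurons had 200 and 43.7 (Eed+/+) and 64.9, 62.1 and 287 CPM (Eed-/-). The groups overlapped. Usp29 had 4.19, 0, 65.0, 9.23 and 18.7 CPM in Eed+/+ and 0, 2.66, 20.7, 0 and 35.4 in Eed-/- astrocytes, and neurons had 23.1 and 6.24 (Eed+/+) and 35.2, 31.3 and 64.8 (Eed-/-). Although the windows around their starts overlap, Peg3 had more reads than Usp29 in all 10 libraries within the limits. Where both had reads, in 9 of them, the ratio ranged from 1.84 to 27.8.

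In the distal domain Kcnq1ot1 (ENSMUSG00000101609.1, chr7:143203458-143296549, minus strand) is the long noncoding RNA that silences neighbours in cis on the paternal copy, a process in which Polycomb repression takes part, and Igf2 (ENSMUSG00000048583.16, chr7:142650766-142666816, minus strand) encodes a fetal growth factor. Kcnq1ot1 had 99.5, 108, 488, 63.2 and 54.0 CPM in Eed+/+ and 22, 10.6, 245, 0 and 111 in Eed-/- astrocytes. Neurons had 98.2 and 556 (Eed+/+) and 108, 54.4 and 193 CPM (Eed-/-). The 3 highest values, 556, 488 and 245 CPM, stood in libraries outside the limits. Igf2 had 1.57, 4.11, 0, 0 and 0 CPM in Eed+/+ and 0, 9.31, 17.7, 0 and 12.1 in Eed-/- astrocytes, and 1.61 and 0 (Eed+/+) and 0.782, 6.16 and 0.629 CPM (Eed-/-) in neurons. Igf2 had no more than 14 reads in any library, and 62.8% of its exon bases are shared with Gm49394 on the same strand. Of the maternally expressed neighbours, H19 had at most 4.71 CPM and Cdkn1c at most 18.5 in the libraries within the limits. Both were higher in Eed-/- astrocyte replicate 3 (354 and 174 CPM), where the 4 meningeal fibroblast markers summed to 1972 CPM, against at most 269 in the other 14 libraries.

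Kcnq1ot1 and Snhg14, the noncoding genes among the 10, took a larger share of the reads in 4 of the 5 libraries outside the limits than in any library within them. They made up 1.49% to 20.8% of the reads of the 10 genes in the libraries within the limits. In Eed+/+ neuron replicate 2 they made up 82.5%, with 178 and 104 reads beside 2 of Snrpn and 1 of Ndn. The share was 46.3% in the library labelled Eed+/+ astrocyte replicate 3, 45.5% in Eed-/- astrocyte replicate 3, 4.63% in replicate 1 and 100% (4 reads) in replicate 4. The part of these reads outside genes in the differences below was not tested.

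**Figure D4:**
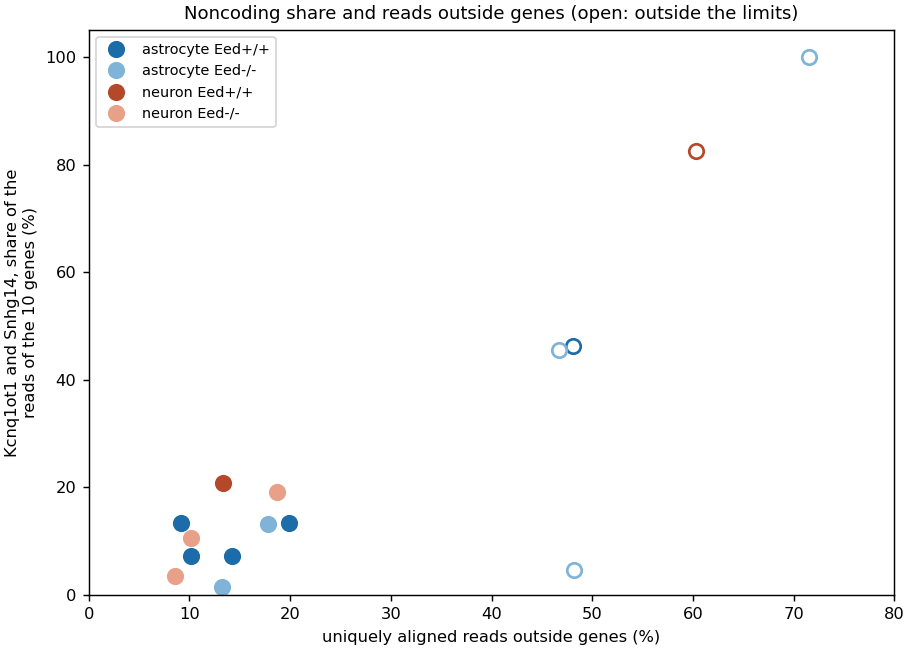
Share of the reads of the 10 genes that fell on Kcnq1ot1 and Snhg14 (vertical axis, %) against the share of uniquely aligned reads outside genes (horizontal axis, %), 1 point per labelled library, open outside the limits. In 4 of the 5 open points the share is at least 45.5%, against at most 20.8% in the 10 filled points.

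Eed-/- and Eed+/+ astrocytes were then compared. With edgeR's quasi-likelihood test, adjusted over 8956 genes, 0 of the 7 members that passed the filter on low counts were called, and 0 genes were called in all (0.0%). Igf2, Magel2 and Mkrn3 did not pass the filter. At an unadjusted p under 0.05 there were 0 of 7 members and 108 genes in all (1.21%), and DESeq2 called 0 members and 1 gene. The log2 differences of Eed-/- minus Eed+/+ ranged from -1.62 (Peg12) to 0.12 (Peg3), with a median of -0.69 beside -0.54 over all genes tested. Of the 7, 6 were below 0, as were 71.4% of all genes tested. Within the limits Peg12 was at -0.63, Kcnq1ot1 at -0.41 and Snrpn at -0.18, while Ndn (0.37), Peg3 (0.68), Usp29 (1.26) and Snhg14 (0.45) were above 0. The interval for Ndn ran from -2.49 to 1.70 and that for Kcnq1ot1 from -3.65 to 1.60, so that differences of several fold in either direction were not detectable. Over the 6 libraries within the limits the intervals narrowed to -0.45 to 1.201 for Ndn (0.37) and -1.26 to 0.90 for Snrpn (-0.18), still with no call. The largest values there were those of Magel2 (4.33, -0.23 to 8.90, unadjusted p 0.0603, edgeR adjusted p 1) and Igf2 (2.83, -1.59 to 7.24), both with intervals that included 0. Both genes passed the filter there only through the Eed-/- libraries, where they were high, and these values are a description. Markers of other cells were high in the poorly aligned Eed-/- astrocyte libraries. The 6 microglia markers summed to 4868 and 1556 CPM in replicates 1 and 3 and the 5 erythroid markers to 5723 and 7801 CPM in replicates 1 and 4, while both lists had 0 reads in replicates 2 and 5. In Eed+/+ astrocytes the microglia markers summed to at most 247 CPM and the erythroid markers to at most 5.76. Over the 8 of 10 neuron markers that passed the filter, the median log2 difference in astrocytes was -1.46 beside -0.54 over all genes, with 0 called. Their part in the differences was not tested. The exact permutation test of log2(CPM + 1), two-sided over all genes with a read, gave Igf2 a p of 0.206 (adjusted 0.912) and Magel2 a p of 1 over all 10 astrocyte libraries.

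In neurons the same test called 0 of 9 members and 0 of 11862 genes (0.0%), with DESeq2 calling 0 members and 27 genes. Magel2 was higher in all 3 Eed-/- libraries than in both Eed+/+ libraries. Its fitted log2 difference was 3.99 ± 1.30 (SE; unadjusted p 0.00873, edgeR adjusted p 0.644). With 2 and 0 reads in Eed+/+ neurons it passed the filter on low counts only through the Eed-/- libraries, where it was high, so that it had to differ and its fitted values are given as a description, with no support from their p. The log2 difference of Snhg14 was -2.34 ± 0.80 (SE; unadjusted p 0.0121, edgeR adjusted p 0.646). Besides Magel2, Snhg14 was the 1 member with an unadjusted p under 0.05, where 862 of all genes (7.27%) had one. Ndn (2.11, 95% interval -0.39 to 4.61), Usp29 (1.36, -0.44 to 3.16) and Kcnq1ot1 (-1.63, -3.36 to 0.09) had intervals that included 0. Leaving out Eed+/+ neuron replicate 2, the library outside the limits, left 1 Eed+/+ library, which is assumed to vary like the Eed-/- ones and has no spread of its own. The log2 difference was then 3.72 for Magel2 (edgeR adjusted p 1, again tested only through the Eed-/- libraries), -1.44 for Snhg14 (-2.94 to 0.065, unadjusted p 0.0597), 1.15 for Ndn (-0.26 to 2.57) and 0.23 for Kcnq1ot1, whose sign changed. Over 10 neuron markers in the same comparison of all 5 neuron libraries, the median log2 difference was 1.55 beside 0.15 over all genes, with 0 called. The 3 at an unadjusted p under 0.05 were Neurod6 (3.51), Rbfox3 (3.08) and Neurod2 (2.93), while Bcl11b (-1.34), Map2 (-0.89) and Dcx (-0.0086) lay below 0. The summed level of the 10 markers overlapped (1531 and 1052 CPM in Eed+/+ and 1373, 2250 and 2403 in Eed-/- neurons). Their part in the values of Magel2 and Ndn was not tested. Without Eed+/+ neuron replicate 1, which leaves the poorly aligned replicate 2 alone under the same assumption, 4 of 9 members were called in edgeR (Kcnq1ot1, Snrpn, Ndn and Snhg14), where 2601 of 12635 genes were called in all (20.6%).

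Whether groups overlapped was counted for every gene. Ndn, Magel2 and Usp29 were higher in all 3 Eed-/- neuron libraries than in both Eed+/+ ones, 3 of 10 members where 11.0% of genes did so, and Snhg14 was lower in all 3, 1 of 10 where 5.48% did so. For the exact permutation test the smallest p that 2 against 3 libraries allow is 0.1. Across both cell types within the limits, 5 Eed-/- libraries (2 astrocyte and 3 neuron) stood against 5 Eed+/+ libraries (4 astrocyte and 1 neuron), a comparison chosen after the values were seen. Magel2 was the 1 member of 10 higher in every Eed-/- library, as were 63 of 26668 genes (0.236%), and 0 members and 35 genes (0.131%) were lower in every one. The summed level of the 10 genes ranged from 1240.0 to 1917 CPM in these Eed-/- libraries and from 877 to 1175 in the Eed+/+ ones. Ndn took 38.2% to 79.3% of the reads behind that sum, and its own values overlapped. Within astrocytes the sum was 1295 and 1240.0 CPM in Eed-/- and 877, 954, 1175 and 1170 CPM in Eed+/+ libraries, and within neurons it was 1413, 1917 and 1516 CPM against 1104 in the single Eed+/+ library. Without the TMM scaling the astrocytes overlapped and the neurons did not. As a share of gene reads the 10 genes then took 0.103% and 0.123% in Eed-/- astrocytes and 0.0798%, 0.0804%, 0.106% and 0.104% in Eed+/+ astrocytes, and 0.144%, 0.181% and 0.149% in Eed-/- neurons against 0.115% in the Eed+/+ one. These sums are a description with no test.

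Astrocytes and neurons were compared over all 15 libraries. None of the 10 members was called in edgeR (0 of 10, with 2 of 13367 genes or 0.015% called), and DESeq2 called 0 members and 5 genes. The same edgeR fit called 0 of 10 astrocyte markers (median log2 difference 0.77), 0 of 10 neuron markers (-0.42) and 0 of 6 microglia markers (4.17). In Eed+/+ cells alone the neuron markers were higher in astrocytes, with a median of 1.07 beside 0.08 over all genes. Separation of the cell types was thus weak in this fit. The log2 difference of astrocytes minus neurons was -2.39 ± 1.08 for Snhg14 (SE; unadjusted p 0.0263, edgeR adjusted p 0.776) and -2.43 ± 1.21 for Mkrn3 (SE; 0.0449, adjusted 0.894). These were 2 of 10 members, where 5.51% of genes had an unadjusted p under 0.05. In the exact permutation test within genotypes, two-sided, Snhg14 (p 0.00425), Mkrn3 (p 0.00595) and Peg12 (p 0.00935) were under 0.05 before adjustment, 3 of 10 where 10.2% of all genes were, and adjusted over all genes they were at 0.37, 0.382 and 0.417. Over the 10 libraries within the limits the log2 difference was -1.69 for Snhg14 (95% interval -3.09 to -0.30), -1.35 for Mkrn3 (-3.28 to 0.59), -1.05 for Peg3 (-2.15 to 0.05) and -0.84 for Peg12 (-1.90 to 0.23). The difference of the median gene was -0.34 over all libraries and -0.16 within the limits.

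**Figure D5:**
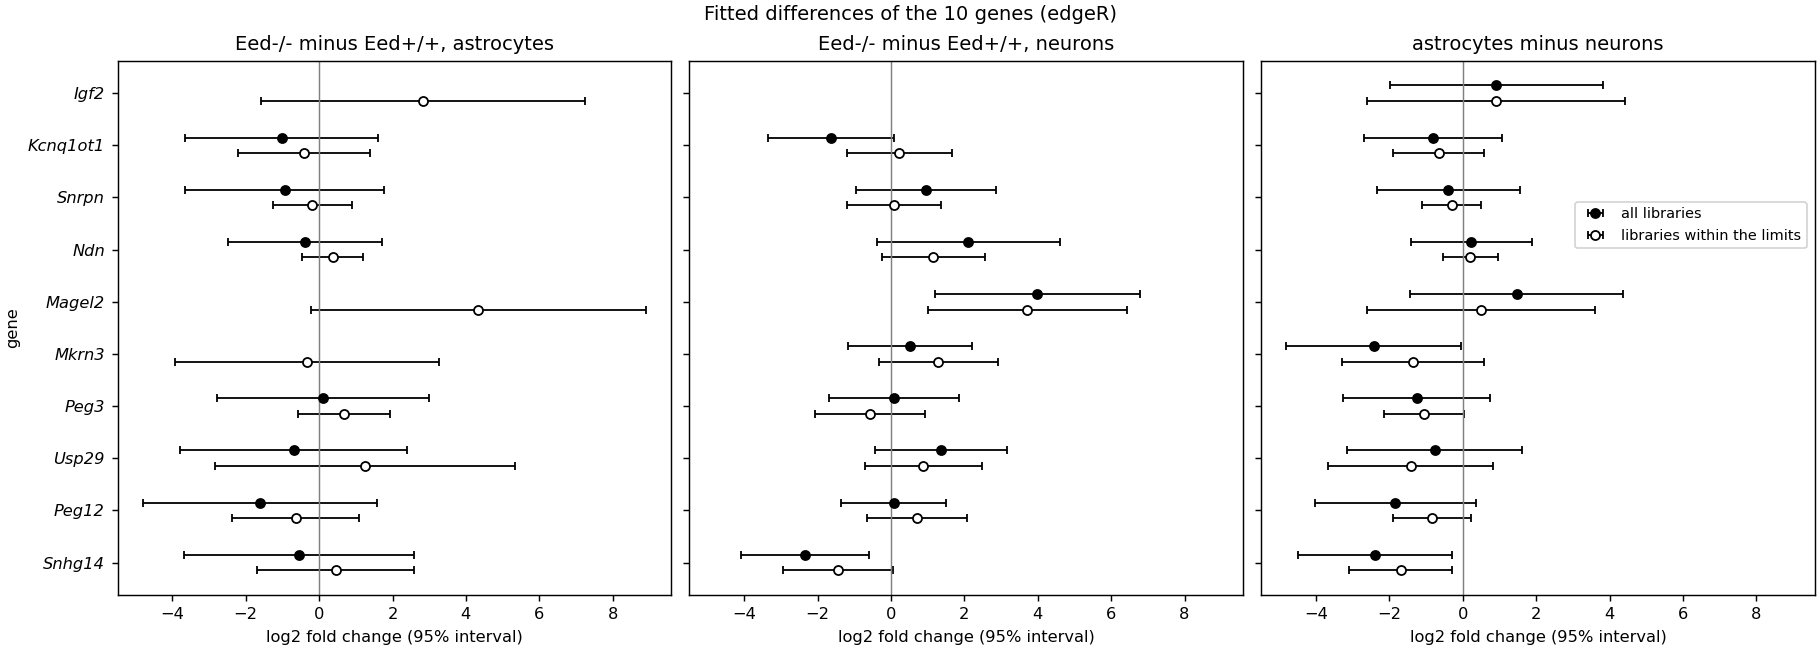
Log2 fold changes of the 10 genes with 95% intervals from edgeR (horizontal axis), for Eed-/- minus Eed+/+ in astrocytes and in neurons and for astrocytes minus neurons, over all labelled libraries (filled) and those within the limits (open). Intervals over all libraries leave out 0 for Magel2 (tested only through the libraries where it was high) and Snhg14 in neurons and for Mkrn3 and Snhg14 between cell types, and none of these passed the adjustment over all genes.

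Within each genotype no member was called. Astrocytes against neurons called 0 of 10 members in Eed+/+ cells (1 gene, 0.00748%) and 0 of 10 in Eed-/- cells (8 genes, 0.0598%). The log2 difference of Snhg14 was -3.19 in Eed+/+ cells (unadjusted p 0.0438, edgeR adjusted p 1) and -1.59 in Eed-/- cells (0.275, adjusted 0.992), and within the limits it was -2.64 (95% interval -4.58 to -0.70, with 1 Eed+/+ neuron library) and -0.75 (-2.62 to 1.13). That of Mkrn3 was -1.54 in Eed+/+ cells (0.394, edgeR adjusted p 1) and -3.32 in Eed-/- cells (0.0473, adjusted 0.702). Within the limits Mkrn3 was at -0.55 in Eed+/+ cells, with 1 neuron library, and at -2.15 in Eed-/- cells (95% interval -4.88 to 0.58). There Peg3 was at -1.69 in Eed+/+ cells, and Peg12 at -1.49 in Eed-/- cells (-2.94 to -0.04, edgeR adjusted p 0.674). The test of the difference between the genotypes gave 1.61 for Snhg14 (0.473, edgeR adjusted p 1) and -1.78 for Mkrn3 (0.492, adjusted 1). The genotype effect in astrocytes minus that in neurons called 0 of 10 members in edgeR (7 genes, 0.0524%), with 0 members at an unadjusted p under 0.05 and 0 by DESeq2, so a difference in genotype effect between cell types was not shown for any member.

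The neighbourhood and related pathways were read from lists of genes. Of 5 other paternally expressed genes of chromosome 7 found in the files 1 passed the filter in each comparison of genotype and in that of cell types. Of 15 genes listed as maternally expressed 4 to 6 passed it, and of 16 insulin-like growth factor pathway genes 9 to 14. Of 11 imprint maintenance genes 11 passed it, and of 11 MAGE family genes and partners, which include Ndn and Magel2, 10 or 11. Of 9 biallelic genes of the Prader-Willi region 6 or 7 passed it. Which copies the listed genes use in these cells was not measured. None of these genes was called in those 3 comparisons (0 in each list). Between Eed-/- astrocytes and neurons 1 list gene of this kind passed, Uhrf1, a reader of hemimethylated DNA that maintains methylation after replication. It was higher in astrocytes by 5.30 ± 1.16 on the log2 scale (SE, edgeR adjusted p 0.0101), and its genotype effect differed between cell types (6.59 ± 1.43, SE, edgeR adjusted p 0.0103). Over the libraries within the limits 0 genes were called in either comparison. Among marker lists the hemoglobin genes Hbb-bs and Hba-a1 were called in these 2 comparisons and Hbb-bt in the first, and all 5 erythroid markers were at 0 reads in both Eed-/- astrocyte libraries within the limits.

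The genes whose levels followed a member most closely over the 15 libraries were named from log2(CPM + 1), as a description only, since the libraries share differences in depth and alignment. Snhg14 was closest to Nfib (Pearson r 0.92) and then to Ube3a (0.90) among 13366 genes. Ndn followed Anapc11 (0.98) and Dda1 (0.97), and Snrpn followed Ptges3 (0.98) and Rpl10a (0.97). Kcnq1ot1 followed Csnk1g1 (0.97) and Zfp608 (0.96), Mkrn3 followed Atp2b2 (0.96) and Clcn5 (0.96), and Peg12 followed Pcbp3 (0.98) and Peli1 (0.97). Peg3 followed Sf1 (0.93) and Smad5 (0.93), and Usp29 followed Neurod6 (0.91) and Hist3h2ba (0.90). Among the members themselves Ndn and Snrpn were closest (0.94), then Mkrn3 and Peg12 (0.83), and Kcnq1ot1 reached 0.61 with Usp29 at most.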

How the data were processed

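Full-length cDNA libraries of sorted cells were aligned by the authors with STAR to mm10 (GRCm38), and the deposited files hold raw counts of reads per gene preceded by 4 lines of totals, which name no gene and were dropped. Which annotation release they used was not stated in what was read here. Settings that keep unique alignments only are stated for the embryonic libraries of the study. The unstranded counts were used, since between 46.7% and 52.7% of stranded reads fell on the first strand, and reads over overlapping genes were set aside by the authors' counting. Coordinates and exon lengths came from GENCODE mouse release 21 (53274 identifiers matched, 105 did not), promoters from RefSeq.

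Groups followed the labels (15 of 16 libraries). Members and lists were chosen with earlier results of these data known. Genes were tested with edgeR 4.0.16 in R 4.3.3 (TMM, filterByExpr, robust quasi-likelihood, two-sided, Benjamini-Hochberg over all genes tested, threshold 0.05), within each cell type for genotype and over 15 libraries otherwise. Exact permutation tests used log2(CPM + 1) and were adjusted over all genes with a read. All members were named, H19, Cdkn1c, Ube3a and Eed always, list genes where called (at most 3 per direction), and the 2 genes most correlated with each member that had reads in at least 10 libraries. Alternatives were RLE size factors, no filter, DESeq2 1.42.0, limma-voom 3.58.1, stranded sums, other fits, a replicate block, the libraries within the limits and leaving out each library. Scripts were tested on simulated data. P-values measure the spread between libraries, which takes in animals, depth and alignment. Astrocyte and neuron libraries were fitted as independent, and whether some shared an animal was not stated in what was read here.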

Additional observations from a re-analysis of the deposited data

Results flagged for a closer look

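In 5 of 20 sets of 5 astrocyte libraries the highest library stood apart from the other 4 by Dixon's test. The rate of about 1 in 20 for this test holds for independent, normally distributed values. These sets share libraries and hold skewed CPM values, so the count cannot be read against that rate and is a description. The library labelled Eed+/+ astrocyte replicate 3 stood apart for Kcnq1ot1 (488 CPM, next 108), Magel2 (39.0 CPM, next 5.24) and Usp29 (65.0 CPM, next 18.7). Its level of Eed (3.71 CPM) went against its label but rested on 2 reads, below its floor of 5.57 CPM. In that library 48.1% of uniquely aligned reads lay outside genes. Among Eed-/- astrocytes, replicate 2 stood apart for Mkrn3 (15.95 CPM, next 3.03) and replicate 5 for Snhg14 (51.6 CPM, next 12.4), both within the limits while the other 3 libraries were not.

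The library with labels of both cell types had Snrpn at 718 CPM without TMM scaling (159 reads), above the highest Eed+/+ library on that scale (207 CPM). Ndn was at 592 CPM there, and the other 8 genes had 0 reads, which allows up to 13.5 CPM (3 reads).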

How the results depend on the processing

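Of 123 alternatives to the 6 counts of members called, 122 gave 0 like the counts reported. The exception left out Eed+/+ neuron replicate 1, so that the poorly aligned replicate 2 stood alone against 3 Eed-/- neuron libraries and was assumed to vary like them. Then 4 members were called (Kcnq1ot1 at -2.38, Snrpn at 4.68, Ndn at 8.08 and Snhg14 at -2.85), along with 2601 genes in all, against 0 to 4 members over all left-out neuron libraries.

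For the fold changes of single members, settings other than leaving out single libraries kept the direction in 203 of 215 values and turned it in 12, with no call. In astrocytes, Eed-/- minus Eed+/+, Ndn turned to 0.37 and Snhg14 to 0.45 within the limits, Peg3 to -0.016 with the replicate block, and Usp29 to 1.81 with limma-voom, 1.26 within the limits and 0.51 with a covariate for library numbering. In neurons Kcnq1ot1 turned to 0.23 within the limits, and Peg3 to -0.91 with limma-voom, -0.57 within the limits and -0.71 with the block. Between cell types Magel2 turned to -1.003 with limma-voom and -0.36 with the block. The cause was not tested.

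Leaving out 1 library turned 15 of 264 values, in 10 member comparisons. In astrocytes the values then ranged from -2.17 to 0.030 for Kcnq1ot1 (highest without the library labelled Eed+/+ replicate 3), from -0.46 to 0.65 for Peg3 and from -1.76 to 0.63 for Usp29. In neurons they ranged from -2.38 to 0.23 for Kcnq1ot1, from -0.056 to 1.29 for Mkrn3, from -1.02 to 1.51 for Peg3 and from -0.36 to 0.71 for Peg12. Between cell types they ranged from -1.36 to 0.040 for Kcnq1ot1, from -0.87 to 1.49 for Snrpn and from -0.27 to 3.26 for Ndn, whose highest values came without Eed+/+ neuron replicate 1. Mean levels over few libraries moved with those outside the limits, as without them Magel2 in Eed+/+ astrocytes went from 8.85 to 1.31 CPM and Kcnq1ot1 in Eed+/+ neurons from 327 to 98.2.

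Same-numbered libraries deviated together in no consistent way (correlations from -0.26 to 0.17), and not every library was closest to its own number. Whether astrocyte and neuron libraries of the same number and genotype shared an animal was not stated in what was read here. The replicate block called 0 members in every comparison. Counts over all genes moved more. In neurons 127 were called with no filter and 27 by DESeq2, and in astrocytes 46 in 1 fit over all 15 libraries. The filter on low counts left no test of Igf2, Magel2 and Mkrn3 in astrocytes and of Igf2 in neurons.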
